A study of Mus musculus with 2 samples.

Results

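The genes described here are 10 components of the Notch pathway: the ligands Dll1, Jag1, Jag2 and Dlk2, the receptors Notch1, Notch2 and Notch3, the modifier Lfng and the targets Hes1 and Nrarp. They were taken as a named list, by gene symbol, from the 31053 genes in the count tables, and all 10 were found there. Notch ligands sit on the surface of 1 cell and bind Notch receptors on a neighbour, after which the receptor is cut and its intracellular piece enters the nucleus and works with RBPJ to switch on targets such as Hes1 and Nrarp. A cell that carries ligands can thus be read as sending and a cell that carries receptors and targets as receiving, and in stratified epithelia the pathway is known for its part in the exit of cells from the basal layer.

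Organoids of normal urothelium, the lining epithelium of the bladder, came from wild-type C57BL/6 mice of 8 to 10 weeks and were measured by droplet single-cell RNA sequencing from the 3′ ends of transcripts. Proliferative organoids (P) grew in a complete medium with EGF, WNT3A, RSPO1, Noggin and LY2157299, a TGF-β receptor inhibitor. Differentiated organoids (D) had been grown in the same way and then spent a further week without these 5 agents. Per the methods, cultures started from unsorted urothelial cells embedded in Matrigel and were used at low passage. Each group held 1 library, which leaves no replicate check of any difference between P and D, and no p-value was computed.

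UMIs (unique molecular identifiers) each stand for 1 captured RNA molecule. The cell filter required more than 800 genes and no more than 12% mitochondrial UMIs, and 6818 cells passed in P and 4896 in D. They held 26681469 and 20305621 UMIs, and the median cell held 3405.5 and 3227.5. The ribosomal protein share of UMIs was 37.4% in P against 21.4% in D, and the median gene stood 0.42 higher in D on the log2 scale of UMIs per 1000000 UMIs (CPM). Levels of a gene are given as CPM with exact Poisson 95% intervals, ratios with exact conditional binomial intervals and shares of cells with Clopper-Pearson intervals, all of which cover counting error only. Krt5, a marker of basal cells, had 94287 UMIs in P and 80280 in D, which alone does not establish the urothelial label. The luminal list, the uroplakins with Krt20, summed to 556 UMIs in P and 25287 in D. Squamous markers were also present, with Krt13 at 15128 and 646, Flg at 5651 and 1 and Sprr1a at 18416 and 16367. Of 5 leukocyte and 5 endothelial markers, Tyrobp, Cd3e, Cdh5 and Kdr had 0 UMIs in both libraries, and the 4 globin genes had 0. The endothelial list summed to 138 UMIs in P and 68 in D, from Egfl7 (78 and 17), Pecam1 (60 and 50) and 1 UMI of Tie1 in D. The 6 fibroblast markers summed to 53 UMIs in P and 1270 in D, of which 1234 were Dcn, with Col1a2 at 0, and the leukocyte list summed to 9 and 402, of which 400 were Laptm5. Whether these UMIs came from such cells, and their part in any difference between P and D, was not tested. The kept cells of both libraries shared 6 barcodes.

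The promoters of Lfng, Nrarp and Dll1 are shown because these genes stand for the modifier, the target and the ligand with the clearest patterns below. Each window holds 300 bases around a transcript start from RefSeq on GRCm38.p6, read 5′ to 3′ on the strand of the gene. Capitals mark the RBPJ core motif GTGGGAA or the HES binding motif CACGCG, each searched on both strands (CACGCG reads CGCGTG on the other strand, and TTCCCAC is the other strand of GTGGGAA). The windows are chr5:140607091-140607390 on the plus strand for Lfng, chr2:25180508-25180807 on the plus strand for Nrarp and chr17:15376883-15377182 on the minus strand for Dll1.
Lfng: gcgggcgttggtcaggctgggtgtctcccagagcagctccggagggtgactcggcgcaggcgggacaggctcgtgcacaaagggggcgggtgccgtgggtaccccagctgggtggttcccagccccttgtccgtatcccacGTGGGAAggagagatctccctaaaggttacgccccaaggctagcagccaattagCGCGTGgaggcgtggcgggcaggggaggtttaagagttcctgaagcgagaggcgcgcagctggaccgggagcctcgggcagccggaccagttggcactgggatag
Nrarp: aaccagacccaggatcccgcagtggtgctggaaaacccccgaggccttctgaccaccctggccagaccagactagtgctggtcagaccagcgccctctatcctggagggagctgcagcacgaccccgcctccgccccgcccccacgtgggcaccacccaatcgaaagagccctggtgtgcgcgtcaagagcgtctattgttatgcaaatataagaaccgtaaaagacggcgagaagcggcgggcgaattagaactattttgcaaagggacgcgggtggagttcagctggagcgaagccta
Dll1: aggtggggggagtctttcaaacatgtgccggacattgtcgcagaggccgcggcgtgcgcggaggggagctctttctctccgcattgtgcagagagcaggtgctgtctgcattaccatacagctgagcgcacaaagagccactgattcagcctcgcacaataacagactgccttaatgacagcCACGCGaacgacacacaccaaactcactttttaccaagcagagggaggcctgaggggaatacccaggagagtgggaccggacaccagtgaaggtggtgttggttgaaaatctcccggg
The Lfng window held both motifs, the Nrarp window held neither and this Dll1 window held CACGCG. Another Dll1 window, chr17:15375774-15376073 on the minus strand, is not printed and held neither motif. Among the 11 windows found for 9 of the 10 genes, 1 held GTGGGAA and 5 held CACGCG. Over all 32851 windows of the same length the shares were 6.38% and 9.27%. Dll1 and Dlk2 each gave more than 1 window, and G and C made up 55.7 to 86.0% of the bases of the 11 windows. The windows were not matched for this content, and the difference in shares was not tested. A match is a run of letters and not a site shown to be bound.

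The first question was which Notch components differed between proliferative and differentiated organoids. Nrarp, a feedback inhibitor of the pathway, Notch2 and Lfng stood at least 2-fold above P in the D library, Dlk2 was more than 2-fold above D in the P library, and the other 6 genes differed by less. All 10 genes passed the minimum of 100 UMIs over both libraries. Of all 10719 genes tested, 13.5% passed 2-fold toward D, as did 3 of these 10, and 4.73% passed it toward P, as did 1 of the 10. The median log2 ratio of D over P was 0.58 over the 10 genes and 0.41 over all genes, so that part of the excess in D is shared with most genes. With the median gene set to no difference, Lfng and Dlk2 were still past 2-fold, while Notch2 (0.77) and Nrarp (0.84) were not.

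Among the ligands, Dll1 (ENSMUSG00000014773, chr17:15367354-15376872, minus strand), a transmembrane ligand of the Delta class, stood at 8.32 CPM in P and 8.22 CPM in D. The log2 ratio of D over P was -0.02 (-0.32 to 0.28), so the 2 libraries were not distinguishable in CPM. That depended on the scale and the cells: the ratio was -0.44 relative to the median gene and 0.35 with a stricter cell filter. Jag2 (ENSMUSG00000002799, chr12:112907819-112929776, minus strand), a ligand of the Serrate class, was 36.3 CPM in P and 28.8 CPM in D. Its relative Jag1 (ENSMUSG00000027276, chr2:137081456-137116644, minus strand) went the other way, with 59.9 CPM in P and 87.8 CPM in D. Dlk2 (ENSMUSG00000047428, chr17:46297421-46303271, plus strand), a Delta-like protein that can bind Notch without the domain that activating ligands carry, was 15.3 CPM (13.8 to 16.8) in P and 7.24 CPM (6.12 to 8.51) in D, 2.11-fold higher in P. In CPM over all kept cells the ligands thus did not move as a block. Jag1 was higher in D, Jag2 and Dlk2 were higher in P, and Dll1 was level. Such sums also depend on the mix of cells in each library, and levels by cluster are given below. Relative to the median gene, Jag1 was 0.13, Jag2 -0.75 and Dlk2 -1.50 on the log2 scale. Over all deposited barcodes Jag2 was -0.06 in place of -0.33 in CPM.

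Lfng (ENSMUSG00000029570, chr5:140607320-140615545, plus strand) encodes a glycosyltransferase that alters how Notch receptors respond to each ligand. Its UMIs were few, 70 in P against 152 in D. The level was 2.62 CPM (2.05 to 3.31) in P and 7.49 CPM (6.34 to 8.77) in D, a log2 ratio of 1.51 (1.09 to 1.94).

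The CPM of all 3 receptors was higher in D. Notch1 (ENSMUSG00000026923, chr2:26457903-26516663, minus strand) was 122 CPM in P and 187 CPM in D, and Notch3 (ENSMUSG00000038146, chr17:32120820-32166852, minus strand) was 26.8 CPM in P and 38.0 CPM in D. Their log2 ratios of 0.61 and 0.50 lay close to the 0.42 by which the median gene was shifted. Notch2 (ENSMUSG00000027878, chr3:98013527-98150361, plus strand) was 11.7 CPM in P and 26.5 CPM in D, a log2 ratio of 1.19 (0.98 to 1.39). Relative to the median gene the 3 receptors were higher in D by 0.19, 0.77 and 0.08 on the log2 scale for Notch1, Notch2 and Notch3.

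Of the targets, Hes1 (ENSMUSG00000022528, chr16:30064384-30067796, plus strand), a transcriptional repressor, was 716 CPM (706 to 727) in P and 1209 CPM (1194 to 1224) in D. The log2 ratio of Hes1 was 0.75, above that of 75.1% of all genes tested, and it was 0.33 relative to the median gene. Nrarp (ENSMUSG00000078202, chr2:25180758-25183339, plus strand), which binds the Notch transcription complex and limits it, was 35.1 CPM (32.9 to 37.4) in P and 84.0 CPM (80.1 to 88.1) in D, 2.39-fold higher. Its log2 ratio of 1.26 was above that of 92.3% of all genes tested, and it was 0.84 relative to the median gene. In cells thinned to 2100 UMIs, 6.18% of cells in P and 14.8% in D held a Nrarp UMI.

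**Figure D1:**
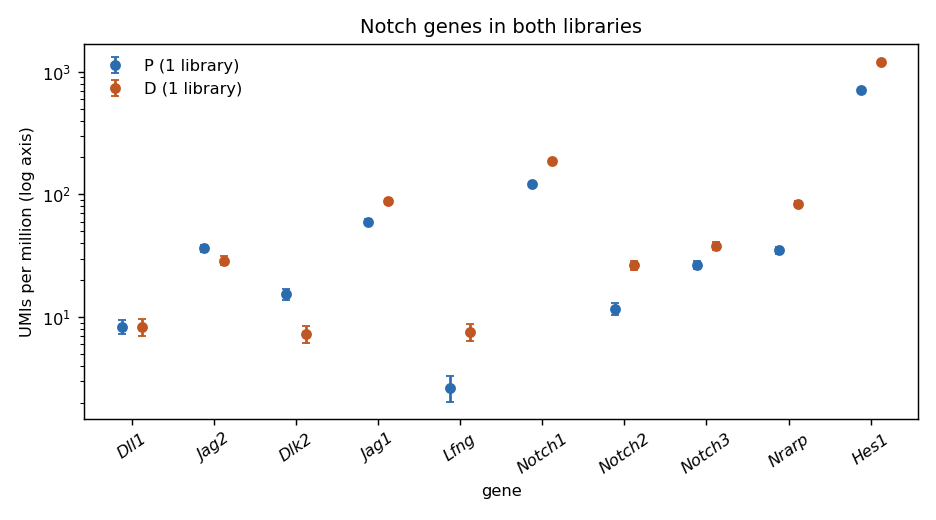
Level of each of the 10 genes in UMIs per 1000000 on a log axis, in the P library (blue) and the D library (orange), with exact Poisson 95% intervals. Nrarp, Notch2 and Lfng sit at least 2-fold higher in D, Dlk2 sits 2.11-fold higher in P, and the Dll1 points coincide.

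A list of 55 further genes of the pathway was examined in the same way. UMIs were found for 52 of them, and 39 passed the minimum of 100 UMIs. On this scale 4 passed 2-fold toward D and 0 toward P, where 13.5% and 4.73% of all genes did, so that neither count stood above the share of all genes. The median log2 ratio of the list was 0.49. The 4 were Dtx4, a ubiquitin ligase of the Deltex family, at 3.26 CPM in P and 23.4 CPM in D, Pofut1, the enzyme that adds O-fucose to Notch, at 6.78 CPM and 18.2 CPM, Neurl3, a Neuralized family ubiquitin ligase, at 5.51 CPM and 12.8 CPM, and the co-repressor Ctbp1 at 42.7 CPM and 86.7 CPM. Dtx4 stood apart from the other 3, with a log2 ratio of 2.85 (2.51 to 3.19). Several genes often read as Notch targets were too sparse to count, and are named after their values were seen: Hey1 had 0 UMIs in P and 9 in D, Heyl had 0 and 1, and Hes5 had 0 in both.

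The second question was where in the organoids each component was found. Cells of each library were clustered after the 10 genes and the 55 pathway genes had been removed from the genes used for clustering, and each cell received a basal score, its mean standardised level of Krt5, Krt14, Krt15, Trp63, Itga6, Itgb4, Cd44 and Col17a1. Clusters with a mean score above that of their library are called the basal side. In P these were cluster 1 (2576 cells, led by Ctla2a and Nbl1) and cluster 3 (356 cells, led by Ccna2 and Hmmr, of which 97.5% were cycling). The other cells of P were cluster 0 (2644 cells, led by Sprr3 and Cnfn) and cluster 2 (1242 cells, led by Fmo2, Mmp7 and Agr2). In D the basal side was cluster 1 (1316 cells, led by Acta2 and Cav1), and the others were cluster 0 (2744 cells, led by Krt1 and Reg1) and cluster 2 (836 cells, led by Ifit1bl1 and Ubd with Upk3b and Upk3a among its 10 leading genes). The clusters carry these genes in place of cell type names.

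In both libraries the ligands Dll1, Jag2 and Dlk2 and the modifier Lfng were higher on the basal side, and the receptor Notch3 and the target Nrarp were lower there. In P, 9 of the 10 genes held 100 UMIs, and 3 were at least 2-fold higher on the basal side, where 8.24% of all genes were, and 2 at least 2-fold lower, where 6.16% were. In D, all 10 held 100 UMIs, 4 were at least 2-fold higher, where 6.00% of genes were, and 2 at least 2-fold lower, where 7.01% were. Lfng, with 70 UMIs in P, was the gene not counted there.

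Dll1 was strongly one-sided. It stood at 22.6 CPM in cluster 1 and 14.3 CPM in cluster 3 of P, against 1.23 CPM in cluster 0 and 1.42 CPM in cluster 2. For D the levels were 31.5 CPM in cluster 1, 2.59 CPM in cluster 0 and 1.61 CPM in cluster 2. The ratio of basal side to other cells was 16.6-fold in P and 13.8-fold in D, so that the equal CPM of Dll1 in both libraries covered an uneven spread within each. The basal side held 2932 of the 6818 kept cells of P and 1316 of the 4896 of D. In CPM, Dll1 in cluster 1 of D stood above both basal side clusters of P, with intervals that did not overlap. The part of this mix of cells in the library ratios was not tested. Although Dll1 and Dlk2 had been kept out of the clustering, both were among the 10 leading genes of cluster 1 in P.

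Dlk2 followed the same order, with 41.1 CPM in cluster 1 and 19.9 CPM in cluster 3 of P, against 3.23 CPM and 2.83 CPM in clusters 0 and 2. Cluster 1 of D held 26.2 CPM, with 3.12 CPM in cluster 0 and 0.81 CPM in cluster 2, the last on 4 UMIs. The basal side stood 3.58 higher in P and 3.44 higher in D on the log2 scale, and 4.57 and 4.01 higher without the cells of high doublet score. Jag2 was 81.2 CPM and 81.4 CPM in clusters 1 and 3 of P and 93.6 CPM in cluster 1 of D. On the basal side Jag2 was thus not lower in D, unlike over all kept cells. Elsewhere it was 9.39 CPM and 18.4 CPM in clusters 0 and 2 of P and 16.0 CPM and 4.03 CPM in clusters 0 and 2 of D. Within the basal side of P, Jag2 was thus level between the cycling and the other cluster, whereas Dlk2 was 2.07-fold lower in the cycling one (log2 ratio -1.05, -1.62 to -0.52), a step down of 2-fold or more that 1.26% of all genes made.

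Jag1 was the exception among the ligands. In P it was highest in cluster 2 at 113 CPM, followed by cluster 0 at 58.7 CPM, with 38.5 CPM and 32.9 CPM in clusters 1 and 3, whose intervals overlapped. In D the order differed, with 108 CPM in cluster 1, 95.7 CPM in cluster 0 and 52.9 CPM in cluster 2. The log2 ratio of basal side over other cells was -0.94 (-1.11 to -0.77) in P and 0.39 (0.23 to 0.54) in D, and the difference between these was not tested, there being 1 library of each kind.

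Lfng was counted in few cells but lay with Dll1. It was 5.36 CPM and 9.32 CPM in clusters 1 and 3 of P, with at most 0.94 CPM in the other clusters, and 20.8 CPM in cluster 1 of D, with 4.99 CPM and 2.01 CPM in clusters 0 and 2. The basal side was 5.11-fold higher in D. In P the ratio was 7.99-fold on 57 UMIs against 13.

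The 3 receptors had 3 different distributions. Notch3 mirrored the ligands, with 6.63 CPM and 12.4 CPM in clusters 1 and 3 of P against 36.8 CPM and 38.9 CPM in clusters 0 and 2. In D it was 9.46 CPM in cluster 1, 46.9 CPM in cluster 0 and 41.7 CPM in cluster 2, and the other cells stood 4.90-fold above the basal side in P and 4.79-fold in D. Notch1 crossed the basal boundary: in P it was 202 CPM in cluster 3, 199 CPM in cluster 2, 144 CPM in cluster 1 and 74.7 CPM in cluster 0, of which the first 2 could not be told apart by counting. In D it was 231 CPM in cluster 0, 180 CPM in cluster 1 and 92.6 CPM in cluster 2. Notch2 showed little difference between clusters, with 8.50 to 13.2 CPM in P and 25.2 to 27.9 CPM in D, and overlapping intervals throughout D.

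Nrarp lay with Notch3. In P it was 46.7 CPM and 52.6 CPM in clusters 0 and 2, against 9.44 CPM in cluster 1 and 20.5 CPM in cluster 3. Its levels in D were 105 CPM in cluster 0, 91.2 CPM in cluster 2 and 19.2 CPM in cluster 1, so that the basal side was 4.25-fold lower in P and 5.25-fold lower in D. In thinned cells, 3.27% of cluster 1 and 19.1% of cluster 0 held a Nrarp UMI in D, and 4.39% of cluster 3 and 8.19% of cluster 0 did in P. The cycling cluster of P held 2.17-fold more Nrarp than cluster 1 (33 and 74 UMIs), where 4.59% of all genes were at least 2-fold higher.

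Hes1 was unequal in the same direction but by less. It was 526 CPM and 546 CPM in clusters 1 and 3 of P and 804 CPM and 865 CPM in clusters 0 and 2. In D it was 847 CPM in cluster 1, 951 CPM in cluster 2 and 1456 CPM in cluster 0. The log2 ratio of basal side over other cells was -0.63 (-0.68 to -0.58) in P and -0.62 (-0.67 to -0.57) in D. Unlike Nrarp, Hes1 was found in most cells of every cluster, from 56.7% of thinned cells in cluster 1 of P to 80.4% in cluster 0 of D. The 12 early response genes, which dissociation of tissue is known to raise, summed to 1199 CPM in cluster 1 and 1700 CPM in cluster 0 of P, and to 2621 CPM, 2050 CPM and 3853 CPM in clusters 1, 2 and 0 of D. In cells at or under the library median of these genes, the ratio of Hes1 was -0.44 in P and -0.49 in D, in place of -0.63 and -0.62. The part of early response in the Hes1 difference was not tested.

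**Figure D2:**
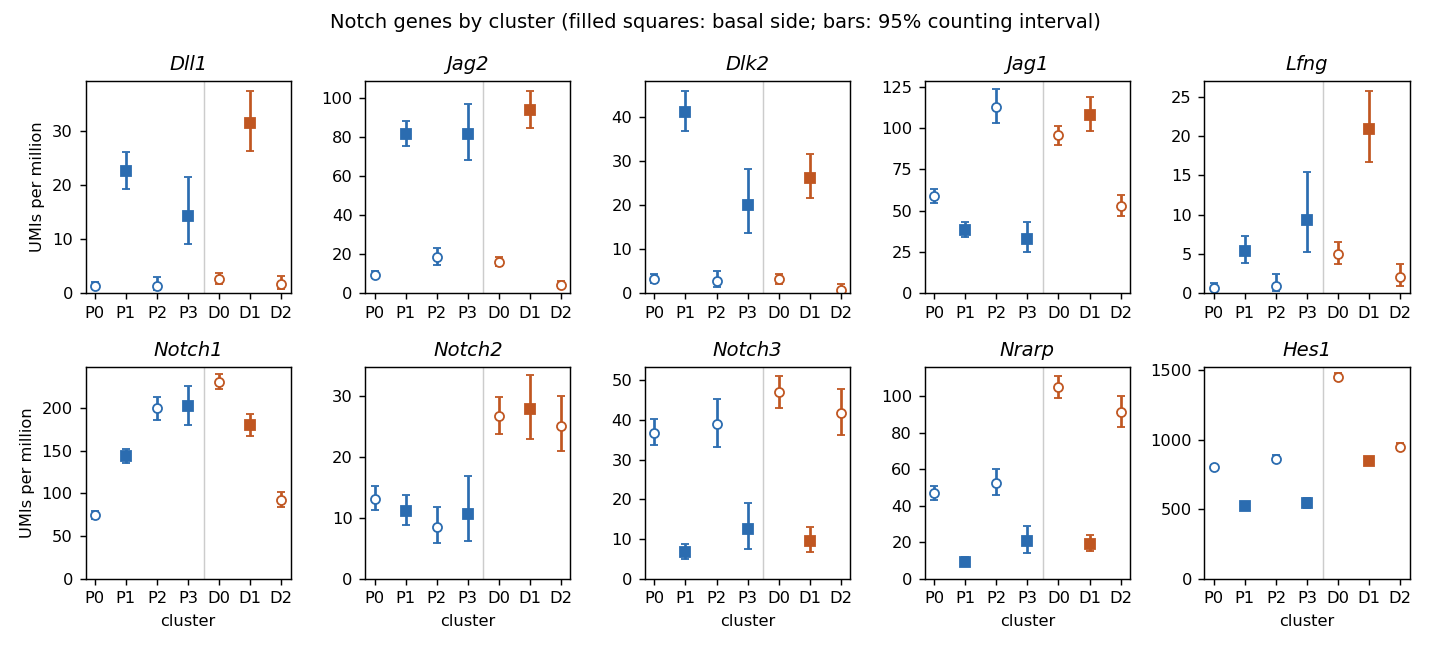
Level of each of the 10 genes in UMIs per 1000000 (axes from 0, 1 scale per gene) in the 4 clusters of P (blue) and the 3 clusters of D (orange), with exact Poisson 95% intervals, where filled squares mark the basal side. Dll1, Jag2, Dlk2 and Lfng are high in the squares, Notch3, Nrarp and Hes1 are low in them, and Jag1 is low in the squares of P and high in that of D.

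The size of the split rested on where the basal side was drawn. At a clustering resolution of 0.4 the basal side of D grew from 1316 to 2660 cells, and the log2 ratios there were -0.27 for Notch3 and -0.55 for Nrarp in place of -2.26 and -2.39. Taking the upper against the lower 40% of cells by basal score gave -0.39 and -0.54 in D and -1.02 and -0.68 in P. The directions were the same as before, and Dll1 was 2.58 in P and 3.13 in D under the score. Jag1 in P was -0.07 in place of -0.94.

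**Figure D3:**
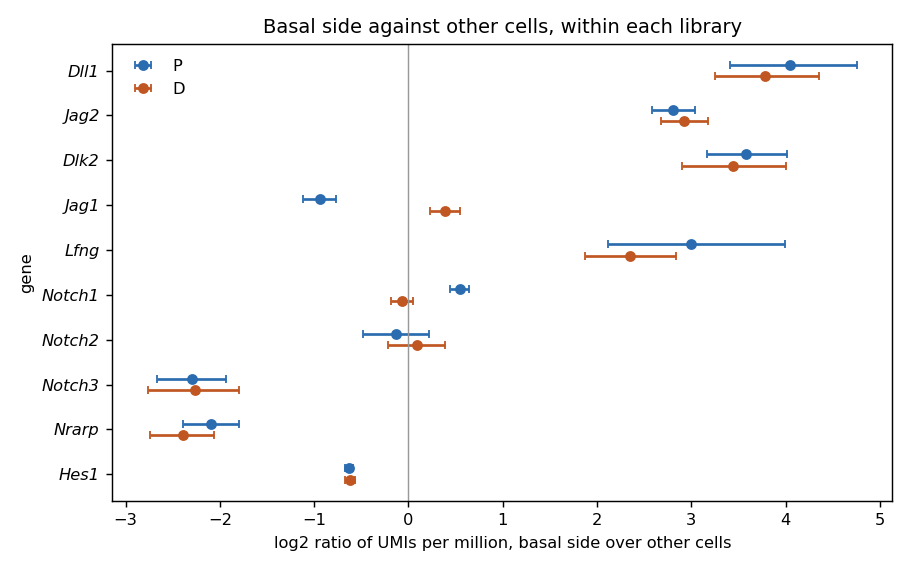
Log2 ratio of UMIs per 1000000 on the basal side over the other cells for each gene, in P (blue) and D (orange), with exact conditional binomial 95% intervals and a line at 0. The ratios of Dll1, Jag2, Dlk2 and Lfng lie between 2.35 and 4.05, those of Notch3 and Nrarp between -2.39 and -2.09, and Jag1 lies on opposite sides of 0.

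Along the basal score itself, with the cells of each library ranked and cut into 5 equal groups, Dll1 was 1.67 CPM in the least basal group of P and 18.7 CPM in the most basal, and its 5 levels were 0.55, 2.73, 7.14, 11.5 and 18.6 CPM in D, in order. The 2 libraries gave nearly the same profile for Dll1. Jag2 was 7.44 CPM in the least and 78.1 CPM in the most basal group of P, and 2.73 and 71.9 CPM in D. Notch1 was also higher toward the basal end, from 61.5 to 188 CPM in P and from 109 to 239 CPM in D, a gradient that the clusters had not shown in D. Nrarp was 41.1, 38.6, 44.4, 30.3 and 19.3 CPM in P and 95.4, 98.1, 94.2, 80.6 and 51.5 CPM in D. The level of Nrarp was therefore much the same over the 3 less basal groups of each library and lower only over the last 2.

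Notch3 had a profile like that of Nrarp in P, with 35.3 CPM in the least basal group and 20.7 CPM in the one next to the most basal, with a lower level again in the most basal, and was 44.6 CPM in the least and 29.3 CPM in the most basal group of D. Jag1 had its highest level in the middle group of P, at 73.7 CPM between 48.5 and 49.5 CPM at the ends, and in D was higher at each step toward the basal end, from 59.3 to 115 CPM. Hes1 in D stayed between 1179 and 1258 CPM over the 5 parts, so that its difference between clusters of D was not seen along the basal score.

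**Figure D4:**
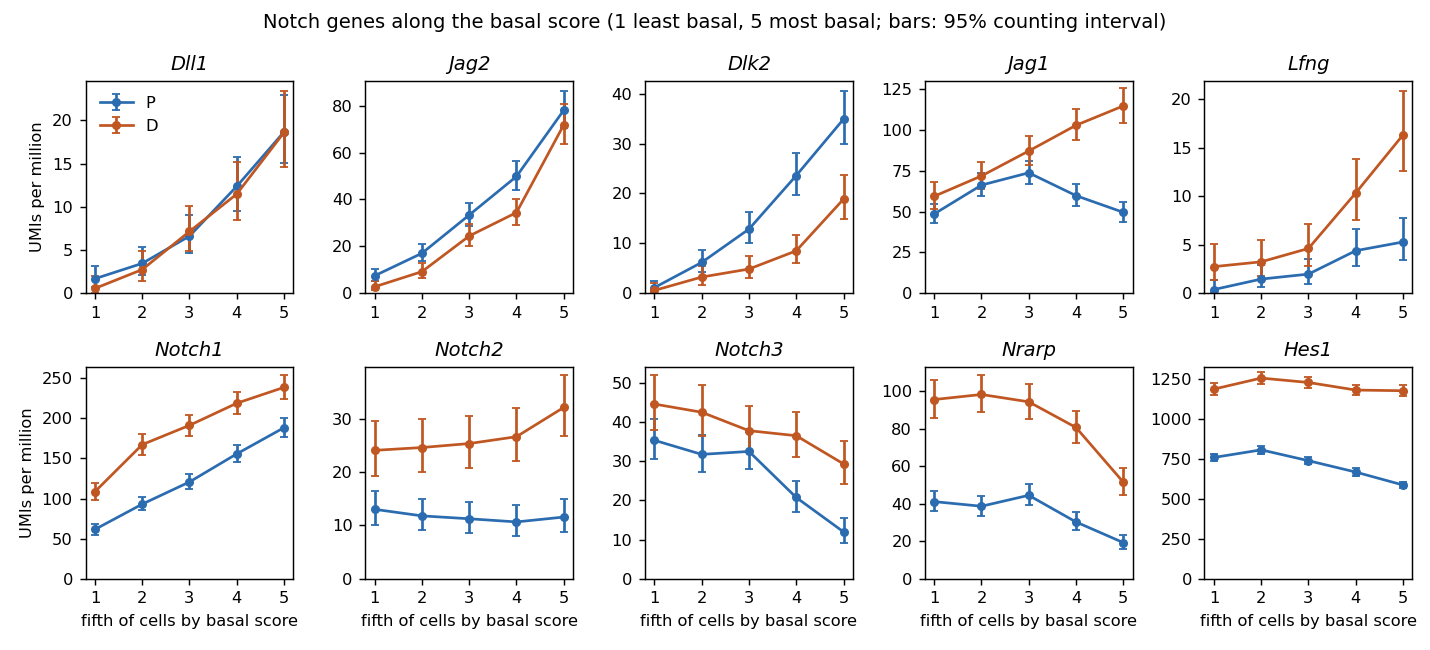
Level of each gene in UMIs per 1000000 (axes from 0) in 5 equal parts of the cells ranked by basal score, 1 the least and 5 the most basal, in P (blue) and D (orange) with exact Poisson 95% intervals. Dll1 has nearly the same profile in both libraries, Jag1 peaks in the middle of P and is highest at the basal end of D, and Hes1 is nearly level in D.

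The non-basal clusters also differed from each other. In D, cluster 2, where all 6 luminal markers were higher and 94.1% of thinned cells held a UMI of them, was compared with cluster 0. Of these markers Krt20 had only 3 UMIs in the whole D library. Jag2 and Notch1 were at least 2-fold lower in cluster 2, 2 of the 7 genes counted, where 1.86% of all genes were, and none of the 7 was at least 2-fold higher, where 2.55% were. Their log2 ratios were -1.99 (-2.73 to -1.32) and -1.32 (-1.46 to -1.17). Notch3 (-0.17, -0.41 to 0.06) and Nrarp (-0.20, -0.36 to -0.04) were close to level. Hes1 was -0.61 (-0.66 to -0.57) in all cells and -0.37 (-0.44 to -0.31) in cells low in early response genes. In P, cluster 2 over cluster 0 gave 1.42 (1.28 to 1.55) for Notch1, the 1 gene of 7 counted at least 2-fold higher, where 1.68% of all genes were, and 0.94 (0.78 to 1.11) for Jag1.

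Thinned cells of D were also grouped by their UMIs of the luminal list, the uroplakins with Krt20. Nrarp was 53.7 CPM in the 2065 cells with 0 such UMIs, 96.6 CPM in the 1228 cells with 1 to 2 and 108 CPM in the 1124 cells with 3 or more. Jag2 ran the opposite way, at 51.9, 17.8 and 4.24 CPM, and Notch1 at 220, 193 and 99.1 CPM. Notch3 was 29.5, 38.8 and 42.8 CPM, whereas Hes1 was 1231, 1320 and 1156 CPM and so did not follow Nrarp. In P only 17 cells held 3 or more luminal UMIs, which left this comparison out of reach there. The groups of D also followed the clusters. A luminal UMI was held by 10.9% of thinned cells in cluster 1, 57.4% in cluster 0 and 94.1% in cluster 2. The group with 0 such UMIs thus took in most of the basal side, where Nrarp was 19.2 CPM. Between the other 2 clusters Nrarp was not higher in the luminal one, at 105 CPM in cluster 0 and 91.2 CPM in cluster 2.

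Among the 55 pathway genes, Dtx3, another Deltex family gene, was the only one at least 2-fold higher on the basal side of both libraries, at 20.8 against 9.63 CPM in P and 23.8 against 9.95 CPM in D. In P, 1 of 36 counted genes was at least 2-fold higher and 1 lower, and in D 2 of 37 were higher and 1 lower. These counts were not above the shares of all genes, which were 8.24% and 6.16% in P and 6.00% and 7.01% in D. No listed gene was at least 2-fold lower in both.

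The third question was whether single cells held ligands and receiving genes apart. Cells were thinned to 2100 UMIs each, which left 6638 cells in P and 4417 in D and left out 180 and 479 shallower ones. Thinning draws UMIs at random, so the values below come from 1 draw unless given over 4. The third and the fourth draw were kept after the value had been seen to move between draws. A sending cell held at least 1 UMI of Dll1, Jag2, Jag1 or Dlk2. Sending cells numbered 1487 in P and 1033 in D. The receiving genes were Notch3 and Nrarp, with Hes1 given apart because most cells held it. Notch1 and Notch2 were not among the receiving genes. In sending cells of P the log2 ratio of Notch1 was 0.25 (0.09 to 0.40). No cell type known to lack these ligands was identified here, so the share that free RNA gives was not estimated. Between clusters of P, thinned to the same depth, Dll1 was held by 4.25% of cluster 1 and 0.23% of cluster 0, Jag2 by 15.1% and 1.75% and Dlk2 by 7.03% and 0.53%. Jag1 was held by 7.43% and 11.3%. Notch3 and Nrarp together were 50.6 CPM in sending and 58.7 CPM in other cells of P, a log2 ratio of -0.21 (-0.48 to 0.04). In D they were 99.6 CPM and 119 CPM, a ratio of -0.26 (-0.49 to -0.05). Over 4 draws the ratio lay between -0.38 and -0.19 in P and between -0.28 and -0.01 in D, and its interval was below 0 in 2 of the 4 in each library. With the 4 ligands pooled, the split into sending and receiving cells was therefore slight and not resolved at this depth.

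The pooled value covered opposite values of single ligands. Jag1 was present in 742 of the 1487 sending cells of P and 722 of the 1033 of D. In cells with a Jag1 UMI, Notch3 and Nrarp were higher than in other cells of P (0.50, 0.21 to 0.78, and 0.44 to 0.50 over 4 draws). In D the ratio was 0.13 (-0.10 to 0.36), and 0.10 to 0.33 over 4 draws. Within cluster 1 the Jag1 ratio ran from -1.74 to -0.33 over 4 draws in P, on 2 to 5 UMIs, and from 0.16 to 0.80 in D. No interval there lay clear of 0. With Dll1, Jag2 and Dlk2 alone, first an alternative to the 4 ligands and described at length once the Jag1 values were seen, the ratio was -1.44 (-1.95 to -0.97) over 797 sending cells in P and -1.41 (-1.94 to -0.93) over 366 in D. Over 4 draws it was -1.80 to -1.13 in P and -1.41 to -1.14 in D, with every interval below 0. Without thinning it was -0.84 in D, and with at least 2 ligand UMIs in a cell it was -2.16 in P. For D that rule gave -0.51 (-1.58 to 0.37), which was not distinguishable from 0. A Notch3 or Nrarp UMI was held by 4.52% (3.18 to 6.20%) of those cells and 11.6% (10.8 to 12.5%) of the others in P, and by 8.20% (5.60 to 11.5%) and 21.6% (20.4 to 22.9%) in D. Both Notch3 and Nrarp were at least 2-fold lower in these cells in each library, where 3.91% of all genes in P and 5.26% in D were, although Nrarp ranged from -1.69 to -0.74 over the draws of P. In the same cells of P the ratio was 0.06 (-0.15 to 0.26) for Notch1 and -0.38 (-1.23 to 0.36) for Notch2. The split thus covers Notch3 and Nrarp and not the receptors in general.

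By ligand, the ratio of Notch3 and Nrarp in P was -1.93 (-3.81 to -0.57) for the 126 Dll1 cells, -1.10 (-1.68 to -0.58) for the 517 Jag2 cells and -2.36 (-3.98 to -1.13) for the 209 Dlk2 cells. In D it was -1.07 (-2.13 to -0.18) for 86 Dll1 cells, -1.31 (-1.94 to -0.74) for 248 Jag2 cells and -0.91 (-2.13 to 0.07) for 62 Dlk2 cells, of which the last was not distinguishable from 0. The draw mattered for these few cells: over 4 draws Dll1 cells ranged from -2.51 to -1.22 in P and from -1.43 to -0.64 in D. For D the interval of Dll1 cells was below 0 in 2 of the 4. Dlk2 cells of D ranged from -1.95 to -0.91, with it below 0 in 3 of the 4. Notch3 had 0 to 2 UMIs in the Dll1 cells of P over the 4 draws. Hes1 was lower by a smaller step in cells with Dll1, Jag2 or Dlk2, at 546 against 732 CPM in P and 993 against 1259 CPM in D.

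Most of the split lay between clusters. Compared within clusters and weighted over them, the ratio of Notch3 and Nrarp in cells with Dll1, Jag2 or Dlk2 was -0.39 in P and -0.33 in D. In cluster 1 of P it was -0.56 (-1.44 to 0.23) and in cluster 1 of D -1.06 (-2.35 to 0.04), neither distinguishable from 0 in this draw. Over 4 draws these ran from -1.22 to -0.45 in P, with the interval below 0 in 2 of the 4, and from -1.06 to -0.52 in D, with it below 0 in 0 of the 4. Notch3 alone had 2 UMIs in 593 ligand cells and 38 in 1855 other cells of cluster 1 of P (-2.60, -5.70 to -0.65), but over 4 draws its ratio ran from -2.60 to -0.69, with the interval below 0 in 3 of the 4. Nrarp there had 14 and 36 UMIs (0.28, -0.72 to 1.21), with -1.02 to 0.28 over the draws, so that neither the size nor, for Nrarp, the sign within the cluster was settled.

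**Figure D5:**
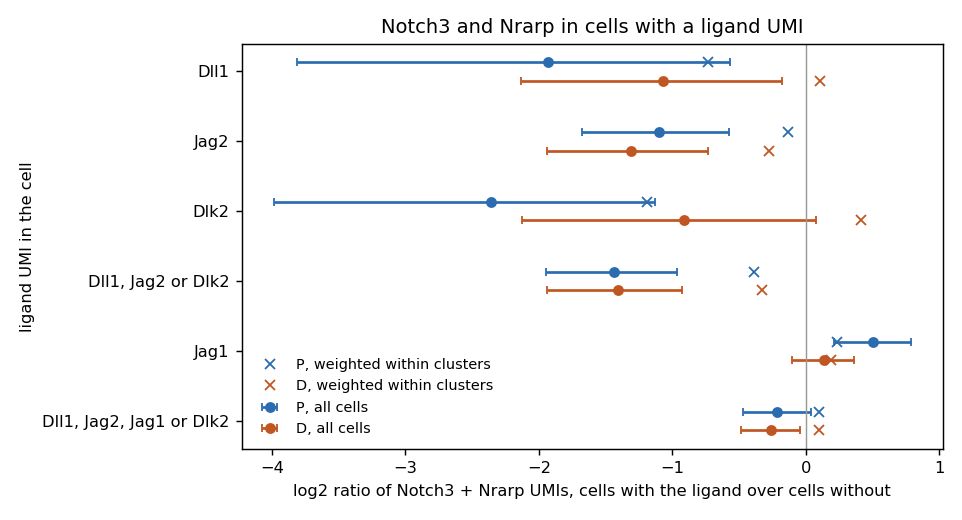
Log2 ratio of Notch3 plus Nrarp UMIs in thinned cells that hold a UMI of the named ligand over cells that do not, in P (blue) and D (orange), with exact conditional binomial 95% intervals for all cells (circles) and the ratio weighted within clusters (crosses, no interval). Cells with Dll1, Jag2 or Dlk2 lie at -1.44 in P and -1.41 in D over all cells and at -0.39 and -0.33 within clusters, and Jag1 cells lie at or above 0.

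Cells that held both kinds of gene were few in the first draw, from which these shares come. Apart from Jag1 and Hes1, each kind was itself held by a minority of cells. The share with both that this sparse detection alone would give was not computed. In P 0.54% of cells held Dll1, Jag2 or Dlk2 together with Notch3 or Nrarp, 11.5% held a ligand of the 3 alone, 10.2% a receiving gene alone and 77.8% neither. In D these shares were 0.68%, 7.61%, 19.8% and 71.9%. With Jag1 and Hes1 included, 14.5% of cells in P and 18.2% in D held both kinds. A cell with no UMI of a gene at this depth may still express it, so that these are shares of cells with a detected UMI.

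Some pairs of basal side ligands were found together in cells. In P, Dlk2 was held by 10.3% (5.61 to 17.0%) of Dll1 cells and 3.01% of other cells. It was held by 6.00% (4.11 to 8.40%) of Jag2 cells and 2.91% of other cells in P. In D it was held by 6.45% (3.73 to 10.3%) of Jag2 cells and 1.10% of other cells. These ligands share their clusters. Among all thinned cells of cluster 1, 7.03% in P and 4.90% in D held Dlk2, shares inside those intervals. Pairs were not compared within clusters. Other pairs were less clear, with Jag2 in 10.3% (5.61 to 17.0%) of Dll1 cells and 7.74% of other cells in P. In D, Jag2 was in 11.6% (5.72 to 20.3%) of Dll1 cells and 5.50% (4.84 to 6.22%) of other cells. Dlk2 was in 4.65% (1.28 to 11.5%) of Dll1 cells and 1.34% (1.02 to 1.73%) of other cells in D. Jag1 went the other way in P, where 4.58% (3.19 to 6.34%) of Jag1 cells and 8.19% of other cells held Jag2, while in D the shares were 5.12% and 5.71%. Notch3 was held by 7.56% (5.19 to 10.6%) of Nrarp cells and 4.88% (4.36 to 5.45%) of other cells in P. In D these shares were 9.79% (7.62 to 12.3%) and 6.70% (5.92 to 7.54%). Among the targets, Hes1 was 700 CPM in cells of P with 0 Nrarp UMIs and 856 CPM (794 to 923) in those with 1. In D, cells with 0 and with 1 Nrarp UMI stood at 1225 CPM and 1320 CPM (1257 to 1386) of Hes1. The 70 cells with 2 or more stood at 1184 CPM (1014 to 1373), so that Hes1 was not higher at each step.

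The genes most like Dll1 and Nrarp were sought over finer clusters, 18 in P and 17 in D, by the Pearson correlation of log2(CPM + 1) in each library, ranked by the lower of both over 7222 genes, each with at least 200 UMIs in P and at least 200 in D. Dll1 itself had 222 UMIs in P and 167 in D, under that minimum. The clusters of a library share that library, its depth and its basal gradient, so that the correlations are descriptions. The 5 genes nearest Dll1 were Smoc2, Bcam, Itgb4, Scmh1 and Pltp, with correlations of 0.91, 0.89, 0.91, 0.91 and 0.90 in P and 0.93, 0.90, 0.89, 0.89 and 0.89 in D. Bcam is a laminin-binding surface protein and Itgb4 an integrin chain of hemidesmosomes, and Itgb4 is also 1 of the 8 genes of the basal score. Smoc2, a secreted matrix protein, was 27.2 CPM in cluster 1 and 1.31 CPM in cluster 0 of P. Jag2 stood at rank 34, and Nrarp at rank 7221 of 7222 with correlations of -0.90 and -0.93. The list of nearest genes depended on the measure: of the 10 named for Dll1 and Nrarp, 3 were also among the nearest by Spearman correlation.

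The gene nearest Nrarp was Notch3, with 0.96 in P and 0.93 in D. Rhov, Rab25, Aldh1a7 and Gsta4 followed, with 0.91, 0.89, 0.89 and 0.89 in P and 0.93, 0.91, 0.92 and 0.96 in D. Rhov is a small GTPase, Rab25 a small GTPase of vesicle traffic in epithelia, and Gsta4 a glutathione transferase. Aldh1a7, of the aldehyde dehydrogenases, is a near copy of Aldh1a1, so that reads of the 2 may have been divided between them in counting. Rhov was 6.25 CPM in cluster 1 and 91.3 CPM in cluster 0 of P, and 21.8 CPM and 140 CPM in those of D. Hes1 stood at rank 216 from Nrarp, with 0.74 in P and 0.65 in D, and Notch1 at rank 3078, with -0.20 and 0.07.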

How the data were processed

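The authors prepared 10x Genomics 3′ libraries and, per the submitters' processing notes, used bcl2fastq 2.19.0 and Cell Ranger 3.0.2 with GRCm38 (mm10). The deposited matrices hold raw UMI counts per gene and cell, whole numbers with no normalization. Strand counting was not given in the sources used here. Cells with over 800 genes and at most 12% mitochondrial UMIs were kept, and counts were summed and divided by all UMIs, times 1000000 (CPM). Seurat 5.3.0 (R 4.3.3) clustered each library (2000 variable features less 15 Notch genes in P and 12 in D, 25 components in P and 21 in D, resolution 0.2), and finer clusters used resolution 2. Detection of 2 or more of 12 proliferation genes marked a cycling cell. The doublet caller scrublet in scanpy 1.11.5 marked 0 cells in each library and so had not worked. Doublets therefore stayed in, and the 6% of cells with the highest scores were removed as an alternative. For cell-level splits each cell was thinned to 2100 UMIs at random and shallower cells were left out, in 1 draw with 3 further draws as alternatives, 2 of them kept after the data had been seen. Other alternatives changed the scaling, the minimum count, the cell filters, the clustering, the basal side and the thinning depth. Other statistics used Python 3.11.15, numpy 2.4.6 and scipy 1.17.1, and were tested on simulated data. A gene counted with at least 100 UMIs over both sides and differed at 2-fold. Genes were named if they were among the 10, if pathway genes passed 2-fold between libraries or on the same side of both, if nearest Dll1 or Nrarp (5 each) or if leading a cluster. The genes, lists and rules were chosen with earlier results of these data known. Coordinates come from the GENCODE annotation of GRCm38. Levels were not compared between genes, since capture at the 3′ end differs by transcript.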

Additional observations from a re-analysis of the deposited data

Results flagged for a closer look

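Jag1 had opposite signs on the basal side of the 2 libraries, with a log2 ratio to the other cells of -0.94 in P and 0.39 in D. The difference was not tested. Under the split by the upper and lower 40% of the basal score the ratio was -0.07 in P and 0.72 in D.

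The barcodes left out by the cell filter also held UMIs of these genes. The 10 genes together stood at 1291 UMIs per 1000000 non-mitochondrial UMIs in the 1376 left-out barcodes of P and 2835 in the 2079 of D, against 1100 and 1813 in the kept cells. Jag1 was 233 (213 to 255) in the left-out barcodes of D and 94.5 in the kept cells, whereas Nrarp was 76.3 (64.8 to 89.1) and 90.5.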

How the results depend on the processing

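No paired analysis was possible because each group held 1 library, and for the same reason no library could be left out. With CPM free of mitochondrial and ribosomal protein genes, or with the median ratio set to 1, the count of the 10 genes past 2-fold between P and D was 2 in place of 4 and that of the pathway list 2 in place of 4, and without a minimum count the list gave 13. Under the scaling to the median, Notch2 was 0.77 and Nrarp 0.84 and so no longer past 2-fold, while Lfng at 1.09 and Dlk2 at -1.50 were. Without a minimum, all genes gave 22.9% past 2-fold toward D and 16.9% toward P. The ratio of Notch3 and Nrarp in cells with any of the 4 ligands, -0.21 in P and -0.26 in D, was -1.44 and -1.41 without Jag1, 0.097 and 0.095 weighted within clusters, which turned the sign in both, and -0.70 in D after thinning to 1500 UMIs. Another draw of the thinning gave -0.015 in D, and of 4 draws 2 had an interval below 0 in each library. Draws beyond the second were added after seeing the data. The ratio with Dll1, Jag2 or Dlk2, whose alternatives were chosen after seeing the data, was -2.16 in P and -0.51 in D with at least 2 ligand UMIs, -0.39 and -0.33 within clusters, and in D -1.99 after thinning to 1500 UMIs and -0.84 without thinning. The causes were not tested. Of the 10 genes nearest Dll1 and Nrarp, 6 were among the nearest at resolution 1 and 3 with Spearman correlations. The counts of the 10 genes past 2-fold on the basal side were 5 in P under all 8 alternatives and 4 to 6 in D, though under the basal score in P Notch1 (1.15) was past 2-fold and Nrarp (-0.68) was not. With under 100 UMIs behind many levels by cluster, 1 library per group and no measure of culture spread, small differences are not resolved.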
